A study of Mus musculus with 6 samples.

Results

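The motor and scaffold genes of the sperm tail were followed in whole testes of mice that lack the receptor for glucose-dependent insulinotropic polypeptide, encoded by Gipr. The members were all non-control probes whose gene name in the array files begins with Dnah, Dnaic, Dnal, Tekt, Odf, Spag or Rsph followed by further letters or digits. The rule found 80 probes of 51 genes among 55668 non-control probes. They are 36 probes of 20 axonemal dynein genes, 6 probes of 5 tektin genes, 10 probes of 8 outer dense fibre genes, 12 probes of 7 radial spoke genes and 16 probes of 11 sperm-associated antigen genes.

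The study holds 6 testes on 1 Agilent one-colour array each. The knockout group is 3 Gipr-/- mice and the wild-type group 3 Gipr+/+ mice, all C57BL/6 and 8 weeks old. The labels state neither which part of Gipr was targeted nor whether the groups were littermates. The series design gives 3 animals per genotype, so the replicates are separate animals.

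The tail of a mouse sperm is built round an axoneme, a ring of doublet microtubules around a central pair. Outer and inner dynein arms, each assembled from heavy, intermediate and light chains, pull neighbouring doublets past each other, and radial spokes and the central pair control when they do so. Tektins line the inside of the doublets, and outer dense fibres run alongside them through the midpiece and principal piece as stiffening rods. Transcription of these genes begins in meiosis for many axoneme genes and later, in spermatids, for many fibre and sheath genes.

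Each probe is a 60-base oligonucleotide that reads 1 short stretch of a transcript. The 6 shown here stand for the points on which the results turn: the outer dense fibre probe that was lower on every knockout array (Odf1), a pair from the closely related Dnah7 heavy chain genes, a dynein arm assembly factor (Spag1), a tektin with nearly equal groups (Tekt3), and the radial spoke gene nearest to Gipr (Rsph6a). Sequences are those deposited in the array files. Capitals mark whole codons of the only forward reading frame that holds no stop codon.
Odf1: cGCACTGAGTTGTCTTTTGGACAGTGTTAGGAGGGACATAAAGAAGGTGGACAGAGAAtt
Dnah7b: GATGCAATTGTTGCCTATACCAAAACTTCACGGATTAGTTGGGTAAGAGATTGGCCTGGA
Dnahc7c: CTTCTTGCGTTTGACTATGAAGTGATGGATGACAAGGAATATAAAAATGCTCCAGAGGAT
Spag1: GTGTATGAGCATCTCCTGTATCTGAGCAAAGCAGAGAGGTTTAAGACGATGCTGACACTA
Tekt3: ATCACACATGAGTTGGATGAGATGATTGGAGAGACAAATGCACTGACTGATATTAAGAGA
Rsph6a: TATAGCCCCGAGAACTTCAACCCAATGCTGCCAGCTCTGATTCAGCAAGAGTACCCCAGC

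On mouse build mm9, per the files, the Odf1 probe lies at chr15:38149190-38149249 on the plus strand. The Spag1 probe lies at chr15:36164380-36164536, also on the plus strand, and covers 157 bases of genome with 60 bases of sequence. The Tekt3 probe is at chr11:62883986-62884045 and the Rsph6a probe at chr7:19659424-19659483, both on the plus strand. The Rsph6a probe is 83.1 kb from the Gipr probe. The Dnahc7c probe is at chr1:46850378-46850437 on the plus strand. The Dnah7b probe shown is placed at chr1:53634105-53634164 on the minus strand, whereas the other 4 Dnah7b probes lie at 46181308 to 46430345 on the plus strand. The Dnah7a probe lies at chr1:53754891-53754950 on the minus strand, so which of these related genes the shown probe reads is uncertain. Exon boundaries on this build were not used here.

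Values below are relative signals, the processed signal of a probe divided by the 75th percentile of its array, so that 1 is the level of that percentile. They compare a probe between arrays and not different probes with each other. Each log2 difference is that of knockout over wild type, with its moderated standard error (SE) from limma. Testing required that a probe stand well above background on every array of the knockout or of the wild type. This held for 72 member probes of 48 genes, of which 70 were well above background on all 6 arrays. The Dnah6 probe A_55_P2030264 and the Spag16 probe A_52_P376460 entered through the knockout group, with 1 and 2 of 3 wild-type arrays above background, so the filter favours a higher knockout value on them.

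The label markers Odf1, Tekt1 and Dnah17 were well above background on all arrays, on the probes given here. Odf1 stood at 38.2 ± 5.55 in knockout and 46.8 ± 1.13 in wild-type testes, and the brighter Tekt1 probe at 101 ± 3.87 and 99.9 ± 2.58 (relative signal, SD, n = 3 each). The brightest Dnah17 probe stood at 44.7 ± 0.337 in knockout and 41.3 ± 2.29 in wild-type testes. The name rule also takes in sperm-associated antigens that are not part of the axoneme, described with their family.

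Across the whole array, 18 of 38884 tested probes passed an adjusted p of 0.05 (limma with Benjamini-Hochberg adjustment), or 0.0463%. The Gipr probe was among them and 5.58-fold lower in the knockout (limma adjusted p = 0.00311). All arrays lie on 1 slide, with the knockout samples in row 1 and the wild-type samples in row 2, and the effect of the row and that of genotype cannot be told apart. Between 70.6% and 76.0% of non-control spots per array were well above background.

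No probe of the motor and scaffold genes passed that threshold: 0 of 72 tested members, with a lowest adjusted p of 0.633. At an unadjusted p under 0.05, 7 member probes were higher in the knockout, where 4.41% of all tested probes were, and 1 was lower, where 3.25% of all were. The 7 are probes of Dnah5, Dnah6, Dnah7b, Dnah12 (2 probes), Dnah17 and Spag1, and the 1 is Odf1. The Dnah6 probe is one of the 2 that entered through the knockout group, and among the 70 probes well above background on all arrays 6 were higher and 1 was lower. The count of 8 over all 72 was 0 without wild-type replicate 2, 1 without knockout replicate 1 or wild-type replicate 1, and between 3 and 8 without any of the other arrays. An exact permutation test of 3 arrays against 3 cannot go below p = 0.1, so single-probe p-values here draw on a spread pooled over probes.

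The families differed in which way their probes leaned. Of the 72 tested members, 48 had a difference above 0, or 66.7%, where 52.8% of all tested probes did. Among the 70 well above background on all arrays, 46 were above 0. The median difference was 0.041 over the 72 and 0.038 over the 70, against 0.0086 over all tested probes. All 3 knockout arrays lay above all 3 wild-type arrays for 18 members, or 25.0%, against 7.87% of all tested probes. The reverse order held for 1 member, Odf1, against 5.49% of all. Dynein probes had a median difference of 0.097 and outer dense fibre probes, grouped by gene name only, one of -0.13. Probes of a family share cells and arrays, so these counts are descriptions and carry no test.

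**Figure D1:**
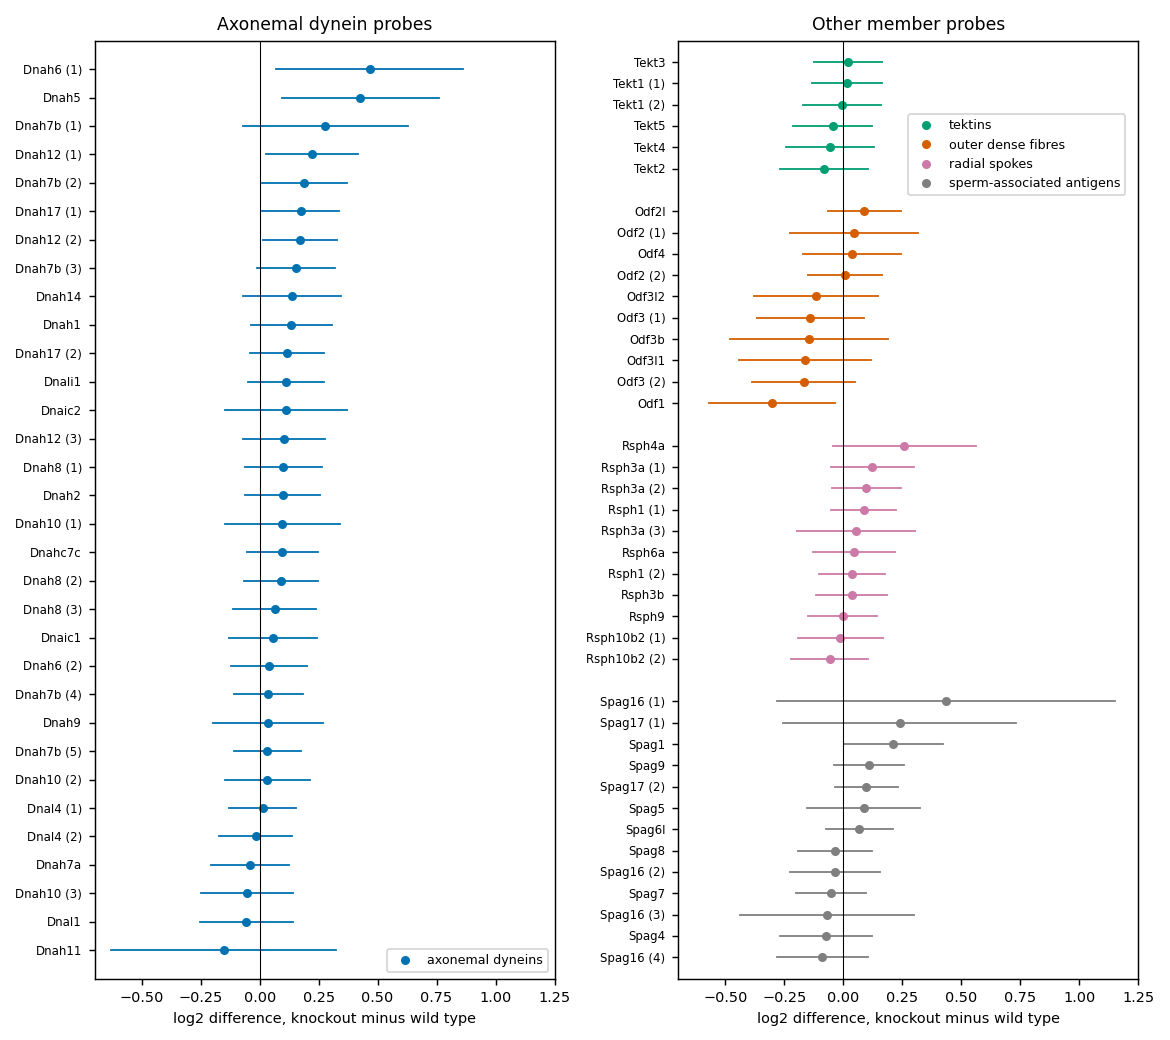
Log2 difference, knockout minus wild type, of the 72 tested member probes (points) with 95% confidence intervals (lines), axonemal dyneins on the left and the other families on the right. Numbers in brackets separate probes of 1 gene. Of the dynein points, 27 lie right of 0 and 5 left of it; of the outer dense fibre points 4 lie right and 6 left, with Odf1 lowest at -0.30.

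The largest difference among the probes well above background on all arrays was on 1 probe of an outer arm heavy chain, Dnah5. Dnah5, a heavy chain best known from airway cilia, had relative signals of 0.0649, 0.0561 and 0.0550 on the knockout arrays, against 0.0516, 0.0369 and 0.0433 on the wild-type arrays. The groups did not overlap, and the difference was 0.43 with an SE of 0.138 (limma adjusted p = 0.633). This probe is dim, and with normexp background correction, which adds an offset of 50 to every signal, the difference was 0.16.

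Dnah17, an outer arm heavy chain of sperm, was read by 4 probes, 2 of which were tested. Probe A_55_P2024903 had relative signals of 1.02, 0.960 and 0.900 in the knockout and 0.851, 0.838 and 0.857 in the wild type. Probe A_55_P2024909, further along the transcript, had 44.3, 44.8 and 45.0 in the knockout and 42.1, 38.7 and 43.1 in the wild type. On both probes every knockout array lay above every wild-type array, by 0.17 (SE 0.0670) and 0.12 (SE 0.0652) on the log2 scale, with limma adjusted p of 0.639 and 0.679. Of the untested Dnah17 probes, A_55_P2038437 was not well above background on any array. Probe A_66_P114504 was well above background on 1 array only, knockout replicate 2, where its processed signal was 28.7 against 2.12 to 3.57 on the other 5 arrays.

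Dnah8, the partner of Dnah17 in the sperm outer arm, gave differences of 0.065, 0.089 and 0.10 on its 3 probes. On its brightest probe the relative signals were 133, 130 and 127 in the knockout and 122, 114 and 128 in the wild type, and the groups overlapped by 1 array. Dnah11, a heavy chain of motile cilia, was the lowest dynein probe at -0.15, with an SE of 0.198 that exceeded the difference. Dnah9, another ciliary outer arm heavy chain, differed by 0.035 (SE 0.0966) on its tested probe, and its second probe was not well above background on any array. Over the 8 tested probes of outer arm heavy chains, 7 were above 0 and the median difference was 0.095.

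The intermediate chains that anchor the outer arm overlapped between genotypes. Dnaic1 had relative signals of 16.1, 15.9 and 14.4 in the knockout and 14.2, 14.5 and 15.8 in the wild type, a difference of 0.056 (SE 0.0768). Dnaic2 had 10.9, 11.7 and 10.3 in the knockout and 8.93, 10.3 and 11.4 in the wild type, a difference of 0.11 (SE 0.107). In both genes wild-type replicate 3 stood within the knockout range. The light chain genes Dnal1 and Dnal4 gave -0.058 on 1 probe and -0.018 and 0.012 on 2 probes, all within 1 SE of 0.

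Inner arm heavy chains were the largest group, with 18 tested probes of which 16 were above 0, and a median difference of 0.10. Dnah12, a single-headed inner arm heavy chain, was read by 3 probes. Probe A_66_P119757 had relative signals of 0.676, 0.624 and 0.572 in the knockout and 0.526, 0.519 and 0.558 in the wild type, a difference of 0.22 (SE 0.0811). Probe A_51_P203340 had 0.475, 0.506 and 0.454 in the knockout and 0.422, 0.421 and 0.431 in the wild type, a difference of 0.17 (SE 0.0649). The groups did not overlap on these 2 probes (limma adjusted p = 0.639 for each). The brightest Dnah12 probe, A_55_P1981425, was higher by 0.10 (SE 0.0722), and its groups overlapped.

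Dnah7b, of a group of closely related inner arm heavy chain genes on chromosome 1, was read by 5 tested probes whose differences ran between 0.033 and 0.28. The probe whose sequence is printed above had relative signals of 0.777, 0.716 and 0.731 in the knockout and 0.634, 0.618 and 0.701 in the wild type. Its difference was 0.19 (SE 0.0749), with no overlap between the groups. The brightest, A_55_P2100968, had 45.6, 46.4 and 45.1 in the knockout and 46.0, 45.0 and 42.6 in the wild type, a difference of 0.037 (SE 0.0604). The dimmest, A_55_P2016312, differed most, by 0.28 (SE 0.144), and its groups overlapped. It read 0.0826, 0.0785 and 0.0697 in the knockout against 0.0521, 0.0649 and 0.0747 in the wild type. Under the alternatives listed below that kept all arrays, its difference was as low as 0.092. Probe A_55_P1967508, with the smallest difference, had 1.09, 1.08 and 1.04 in the knockout and 1.01, 1.04 and 1.08 in the wild type. Probe A_51_P227662 also kept the groups apart, at 2.37, 2.32 and 2.25 in the knockout against 2.01, 2.01 and 2.22 in the wild type. The related genes went both ways, with Dnahc7c higher by 0.096 (SE 0.0623) without overlap and Dnah7a lower by 0.041 (SE 0.0688) with overlap.

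Dnah6, another inner arm heavy chain, had the largest fitted difference of all members, 0.47 (SE 0.164), on probe A_55_P2030264, and 0.039 (SE 0.0664) on probe A_55_P2030269. The first read 0.0139, 0.0184 and 0.0179 in the knockout and 0.0101, 0.0120 and 0.0144 in the wild type, close to background, and the groups overlapped. With normexp its difference was 0.041. The second read 16.5, 16.8 and 16.0 in the knockout and 16.3, 15.1 and 16.7 in the wild type, also with overlap.

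The remaining tested inner arm genes had differences between -0.055 and 0.14. Dnah1 was higher by 0.13 (SE 0.0714) and Dnah2, which pairs with Dnah10 in a double-headed inner arm, by 0.098 (SE 0.0660), each without overlap. Dnah10 gave 0.097, -0.055 and 0.032 on its 3 probes, all with overlap. Dnali1, an inner arm light intermediate chain, was higher by 0.11 (SE 0.0671), and its values of 26.2, 27.0 and 26.5 in the knockout and 23.6, 24.0 and 26.3 in the wild type overlapped by wild-type replicate 3. Dnah14, a heavy chain, was higher by 0.14 (SE 0.0856) with overlap. Dnahc3 was well above background on 1 knockout array and 0 wild-type arrays and was not tested.

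Over all dynein probes, 11 of 32 kept all knockout arrays above all wild-type arrays, where 7.87% of all tested probes did. All 11 are among the 26 tested heavy chain probes, and only 6 probes of other dynein chains were tested. On the median dynein probe the knockout arrays deviated from the probe mean by 0.045, 0.066 and 0.0043 and the wild-type arrays by -0.080, -0.095 and 0.025 on the log2 scale. Wild-type replicate 3 therefore lay above knockout replicate 3. The median dynein difference was 0.063 without wild-type replicate 2 and 0.14 without wild-type replicate 3. With array weights it was 0.12 and with normexp 0.070.

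**Figure D2:**
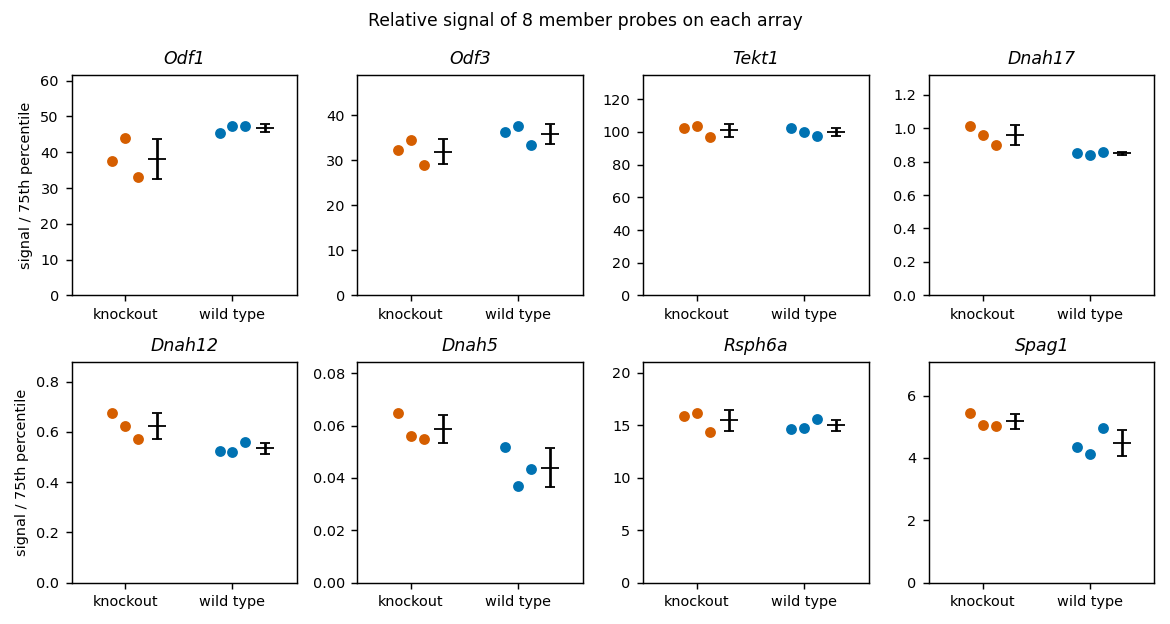
Relative signal (processed signal divided by the 75th percentile of the array, linear axis from 0) of 8 member probes, knockout arrays on the left and wild-type arrays on the right of each panel. Points are arrays, and bars give the mean and SD of 3 arrays. Odf1 is lower on all knockout arrays (33.0 to 44.0, against 45.5 to 47.5), Dnah17, Dnah12, Dnah5 and Spag1 are higher on all of them, and Odf3, Tekt1 and Rsph6a overlap.

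Tektins, the filament proteins inside the doublets, had the narrowest range of differences of the families, and also the fewest tested probes. The 6 probes ran between -0.082 and 0.020, with 2 above 0 and 4 below, and a median of -0.025. Tekt1 had relative signals of 103, 104 and 96.6 in the knockout and 103, 99.6 and 97.5 in the wild type on probe A_55_P2132024. Its other probe had 89.5, 87.0 and 80.4 in the knockout and 88.4, 86.1 and 82.9 in the wild type. The 95% intervals of the Tekt1 differences were -0.13 to 0.16 and -0.17 to 0.16, so shifts of that size remain possible.

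Tekt2 was lower by 0.082 in the knockout (SE 0.0777), with relative signals of 36.1, 40.9 and 38.9 against 42.0, 42.4 and 38.2 in the wild type. Tekt3, whose probe sequence is printed above, had 2.81, 2.81 and 2.71 in the knockout and 2.73, 2.83 and 2.66 in the wild type. Tekt4 and Tekt5 were lower by 0.057 (SE 0.0772) and 0.045 (SE 0.0687). Tekt4 had 52.9, 55.5 and 48.9 in the knockout and 53.6, 58.0 and 52.1 in the wild type. Tekt5 had 5.05, 5.35 and 4.70 in the knockout and 5.23, 5.20 and 5.13 in the wild type. The groups overlapped on every tektin probe.

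Of the 10 probes of the outer dense fibre family, which was set by gene name, 6 had a difference below 0 and 4 above. Over all tested probes, 47.2% were below 0. Besides Odf1, the probes below 0 were of Odf3, Odf3b, Odf3l1 and Odf3l2, and those above 0 of Odf2, Odf2l and Odf4. Odf1 was lowest and the only one of the 10 with an unadjusted p under 0.05 in limma. Whether the family differed from the dyneins was not tested. Odf1 encodes a major protein of the fibres, and in mice its loss detaches sperm heads from tails. Its relative signals were 37.4, 44.0 and 33.0 in the knockout, against 45.5, 47.4 and 47.5 in the wild type. All knockout arrays lay below all wild-type arrays, the spread was wider in the knockout, and the difference was -0.30 (SE 0.111, limma adjusted p = 0.639). Without knockout replicate 3 the difference was -0.20, and without knockout replicate 2 it was -0.41.

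Odf3, which encodes a protein of the sperm tail also called shippo 1, was lower by 0.17 (SE 0.0900) and 0.14 (SE 0.0934) on its 2 probes. The first had relative signals of 32.3, 34.5 and 28.9 in the knockout and 36.3, 37.7 and 33.4 in the wild type, and the groups overlapped by 1 array. The second, A_55_P2062171, had 30.2, 33.9 and 28.8 in the knockout and 34.6, 36.4 and 31.2 in the wild type, also with overlap. The related genes Odf3b, Odf3l1 and Odf3l2 were lower by 0.15, 0.16 and 0.11 with overlap, each by less than 1.5 SE. Odf3l1 read 2.23, 2.27 and 1.86 in the knockout and 2.498, 2.53 and 2.08 in the wild type. Both Odf3 probes lie on chromosome 7, as Gipr does, but 128294 kb away on mm9.

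Odf2, a fibre protein that is also found at centrosomes, was near 0 on its brighter probe. That probe had relative signals of 365, 387 and 349 in the knockout and 370, 368 and 357 in the wild type, a difference of 0.0074 (SE 0.0648). Odf2l, an Odf2-like centriolar protein, was higher by 0.089 (SE 0.0638) without overlap, and Odf4 was higher by 0.036 (SE 0.0855) with overlap. On the median outer dense fibre probe the knockout arrays deviated by -0.018, 0.066 and -0.20 and the wild-type arrays by 0.055, 0.024 and -0.0012. Knockout replicate 3 was lowest and knockout replicate 2 highest. Without knockout replicate 3 the family median was -0.031, and without knockout replicate 2 it was -0.21.

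Radial spoke probes had a median difference of 0.044, with 8 of 11 above 0. Rsph1, a spoke head protein, read 32.9, 32.3 and 31.2 in the knockout and 30.6, 29.8 and 30.2 in the wild type on probe A_51_P373901. The groups did not overlap, and the difference was 0.087 (SE 0.0570). Its brighter probe was higher by 0.037 (SE 0.0583) with overlap. Rsph3a, of the spoke stalk, was higher by 0.097 (SE 0.0603) without overlap on its brightest probe and by 0.12 and 0.054 with overlap on the other two. The brightest, A_51_P367563, read 15.4, 14.7 and 14.5 in the knockout and 13.8, 13.6 and 14.4 in the wild type. Probe A_55_P2114143 read 0.266, 0.239 and 0.249 in the knockout and 0.218, 0.234 and 0.240 in the wild type.

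Rsph4a, a spoke head protein of motile cilia, had relative signals of 0.0549, 0.0461 and 0.0516 in the knockout and 0.0392, 0.0388 and 0.0502 in the wild type. Its difference was 0.26 (SE 0.125) with overlap, on the dim probe A_55_P2030903. Under the alternatives listed below that kept all arrays, that difference was as low as 0.11. The probe shares a run of at least 20 bases with 1 other probe of the array, which is not a member. The Dnali1 and Spag7 probes also share such runs, with 1 and 52 other probes that are not members. The second Rsph4a probe was well above background on 2 knockout arrays and 1 wild-type array and was not tested. Rsph6a, the spoke head relative expressed in testis and the member nearest to Gipr, had 15.9, 16.2 and 14.3 in the knockout and 14.6, 14.8 and 15.6 in the wild type. Its difference was 0.044 with a 95% interval of -0.13 to 0.22. Rsph9, also of the spoke head, differed by -0.0023, and Rsph3b by 0.035, while the Rsph10b2 probes gave -0.013 and -0.059.

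The sperm-associated antigens are named for antibodies and not for a shared structure, and their probes split 7 above 0 and 6 below. Spag1, a cytoplasmic factor for dynein arm assembly, had relative signals of 5.45, 5.05 and 5.03 in the knockout and 4.35, 4.13 and 4.95 in the wild type. The groups did not overlap, and the difference was 0.21 (SE 0.0867, limma adjusted p = 0.649). Of the central pair proteins, Spag6l (Spag6 in the files) was higher by 0.068 (SE 0.0582), and Spag17 by 0.097 (SE 0.0556) on its brighter probe, both without overlap. That Spag17 probe read 2.87, 2.94 and 2.84 in the knockout and 2.66, 2.74 and 2.68 in the wild type. The dimmer Spag17 probe, A_55_P2071481, was higher by 0.24 (SE 0.204), and its groups overlapped.

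Spag16, also of the central pair, had the widest range among probes of 1 gene. It gave -0.070, -0.090 and -0.037 on 3 probes and 0.44 (SE 0.297) on the dim probe A_52_P376460, all with overlap. That dim probe read 0.0303, 0.0262 and 0.0369 in the knockout and 0.0163, 0.0203 and 0.0358 in the wild type. Under the alternatives listed below that kept all arrays, its difference was as low as 0.093. The brightest Spag16 probe, A_55_P2007530, read 12.4, 13.4 and 11.8 in the knockout and 12.04, 13.3 and 13.2 in the wild type. Probe A_55_P2098614 read 1.85, 2.07 and 1.80 in the knockout and 1.91, 2.09 and 2.09 in the wild type. Probe A_55_P2098609 read 0.143, 0.146 and 0.126 in the knockout and 0.121, 0.180 and 0.140 in the wild type. Spag4, a nuclear envelope protein known to bind Odf1 in rat, was lower by 0.075 (SE 0.0804) with overlap. Spag9, a scaffold of JNK signalling, was higher by 0.11 (SE 0.0608), at 5.62, 5.47 and 5.85 in the knockout and 5.26, 5.08 and 5.38 in the wild type without overlap. Spag5, a mitotic spindle protein, Spag7 and Spag8 overlapped. The epididymal defensin-like genes Spag11a and Spag11b were not tested, with at most 2 arrays of a group above background on any of their 3 probes.

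**Figure D3:**
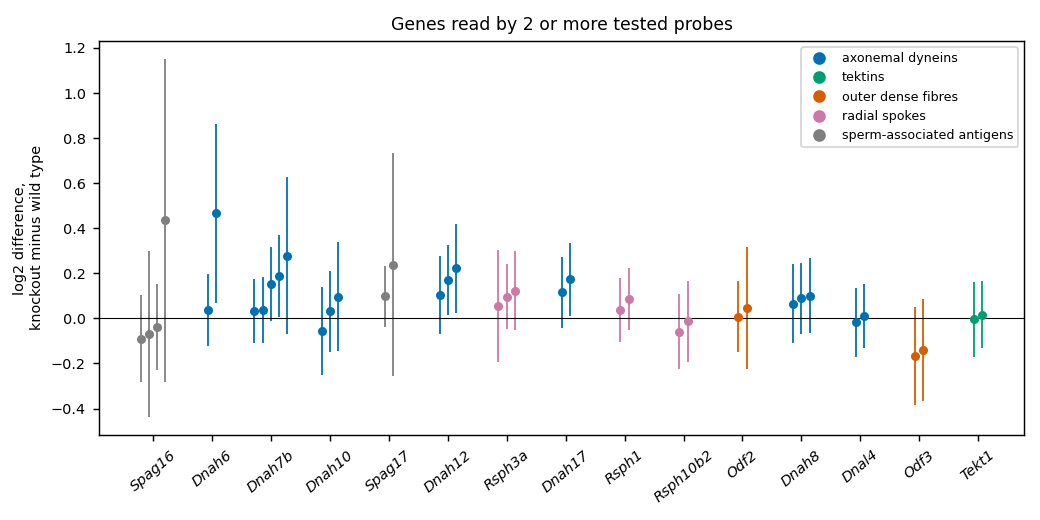
Log2 difference, knockout minus wild type, of each tested probe (points, with 95% confidence intervals) for the 15 member genes read by 2 or more tested probes, ordered by the range of their differences. The widest ranges belong to Spag16 (0.53), Dnah6 (0.43) and Dnah7b (0.25), and the narrowest to Tekt1 (0.020).

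Other genes of the flagellum, from lists chosen with earlier results of these data known, were read by 90 tested probes of 60 genes. None passed the adjusted threshold in limma, and 2 were higher and 3 lower at an unadjusted p under 0.05, against 4.41% and 3.25% of all tested probes. Fibrous sheath genes, whose products form the outer casing of the principal piece, were above 0 for 1 of 14 probes with a median of -0.12. Fscb read 17.3, 19.5 and 16.3 in the knockout and 19.3, 20.7 and 20.8 in the wild type, a difference of -0.20 (SE 0.0857), and its groups overlapped. The brighter probe of Cabyr, which encodes a calcium-binding sheath protein, was lower by 0.21 (SE 0.110). Mitochondrial sheath genes were below 0 for 8 of 8 probes with a median of -0.12, with Spata19 lower by 0.24 (SE 0.0986) and 0.17 (SE 0.0848) on 2 probes.

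The nexin-dynein regulatory complex and its ruler proteins, which tie doublets together and set the spacing of the arms, were read by 13 tested probes. Of these 10 were above 0, where 52.8% of all tested probes were, with a median of 0.068, and 1 had an unadjusted p under 0.05. Ccdc40, a ruler protein, read 0.321, 0.326 and 0.292 in the knockout and 0.267, 0.245 and 0.260 in the wild type on probe A_55_P2085133, a difference of 0.28 (SE 0.0728, limma adjusted p = 0.559). Its brighter probe was higher by 0.074 (SE 0.0746) with overlap. Genes for dynein arm assembly and docking split 9 above 0 and 10 below, central pair genes 5 and 7, and microtubule inner and associated proteins 10 and 10. All 4 probes of radial spoke genes under other names were below 0, with a median of -0.092.

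In whole testis, fewer cells of a type and less RNA per cell cannot be told apart, so marker lists of the testis cell types were measured on the same arrays. Spermatocyte markers, genes of meiosis, were above 0 for 13 of 14 probes with a median difference of 0.053. Their relative signal, summed over the brightest probe of each gene, ran from 159 to 166 in the knockout and from 156.9 to 157.6 in the wild type. Bright probes weigh most in such sums. Of that sum 69.1% is 1 probe, Syce1, and the groups overlapped both on it and on the sum of the rest. Round spermatid markers were above 0 for 4 of 15 probes, with a median of -0.12 and sums of 230.3 to 261 in the knockout against 246 to 277 in the wild type. Elongating spermatid markers were above 0 for 2 of 13 probes, with a median of -0.12 and sums of 2653 to 3071 against 2886 to 2991. Akap4, Smcp, Gapdhs and Cabyr are in that list and in the sheath lists.

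Markers of the somatic cells were measured in the same way. Sertoli cell markers were above 0 for 9 of 11 probes, with a median difference of 0.10. Their sums were 395 to 415 in the knockout against 375 to 385 in the wild type. At an unadjusted p under 0.05 in limma, 3 of the 11 were higher, where 4.41% of all tested probes were. Of these 3, the Amh probe was well above background on knockout arrays only. Without the Clu probe, 42.4% of the sum, the knockout sums of 227 to 247 stayed above the wild-type sums of 210 to 214. Without the brightest Rhox8 probe, which ran from 120 to 130 in the knockout against 101 to 112 in the wild type, the sums of 272 to 285 in the knockout overlapped those of 263 to 284 in the wild type. Leydig cell markers were above 0 for 1 of 7 probes, with a median of -0.44 and sums of 36.76 to 41.06 against 41.13 to 43.99. Without knockout replicate 3 the median was -0.076, and without the Cyp17a1 probe the sums overlapped. Spermatogonium markers were above 0 for 3 of 9 probes, with a median of -0.018 and sums of 10.73 to 12.64 against 11.02 to 11.94. Of the epididymis and efferent duct markers, Crisp1, Lcn5, Lcn8 and Lcn9 had no tested probe. The tested probes of that list were above 0 for 2 of 9, with a median of -0.17. The list summed to 7.58 to 9.43 in the knockout against 8.83 to 9.18 in the wild type. In the Leydig and the epididymis list, 1 probe each was lower at an unadjusted p under 0.05 in limma, against 3.25% of all tested probes. With each array left out in turn, the median ran from 0.038 to 0.074 for spermatocyte, -0.19 to -0.049 for round spermatid, -0.18 to -0.056 for elongating spermatid and 0.058 to 0.15 for Sertoli cell markers. These checks of the marker lists were chosen after seeing the data. The part of cell composition in the differences of the members was not tested.

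**Figure D4:**
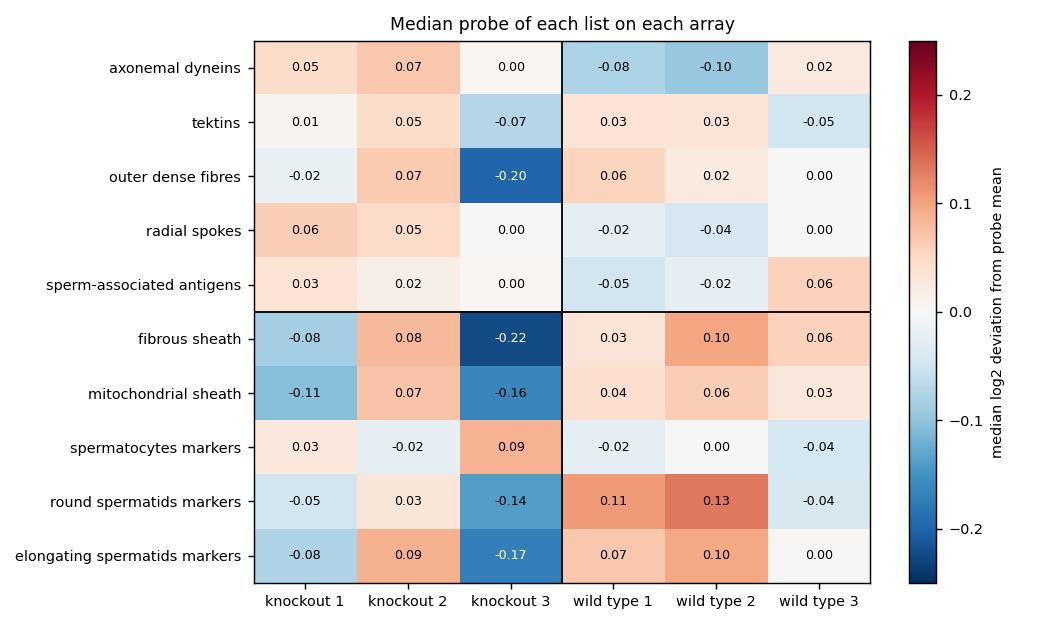
Median log2 deviation from the probe mean, by list (rows) and array (columns, knockout left of the line, wild type right of it), for the 5 member families, 2 sheath lists and 3 germ cell marker lists. Knockout replicate 3 is lowest for the outer dense fibres (-0.20), the fibrous sheath (-0.22), the mitochondrial sheath (-0.16) and both spermatid lists (-0.14 and -0.17), and highest for spermatocyte markers (0.088).

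The same arrays stood low or high across these lists. Knockout replicate 3 was lowest in the outer dense fibres and in both sheath and both spermatid lists, and wild-type replicate 2 was lowest in the dyneins and highest in both spermatid lists. Whether the members moved with cell composition or apart from it was not tested.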

How the data were processed

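Total RNA of whole testis was hybridised with Cy3 to Agilent arrays of design 028005. The deposited intensity values are processed signals of Feature Extraction 10.7.3.1, per the file headers: background-corrected and on a linear scale. The authors' value table holds the same signals times 1 factor per array, brought to a median of 200, for 43705 of the 55668 probes. It served as an alternative.

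The log2 of the deposited intensity was taken, without outlier spots, replicate spots were averaged, and each array was set against its own 75th percentile. Knockout was compared with wild type with limma 3.58.1 (R 4.3.3; lmFit and eBayes, two-sided), probe by probe, with Benjamini-Hochberg adjustment over 38884 probes. The fit was tested on simulated data. Precision is limited by having 3 arrays a group.

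Members and gene lists were chosen with earlier results of these data known. Array values were given for Odf1, Tekt1 and Dnah17, for up to 4 probes of lowest p per family, for the 3 largest differences in each direction among probes well above background on all arrays and for the 3 genes whose probes differed most; other members were chosen after their values were seen. Symbols came from the files' accessions (57 probes), a current symbol (5), a unique older symbol (14) or the name in the files (4), through the RefSeq table of GRCm38.p6, used for names only. Assignment to inner and outer arms is background knowledge.

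Alternatives were normexp background correction, quantile normalization, the authors' table, other filters, other variance models, array weights, the brightest probe per gene, a replicate block, and each array left out.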

Additional observations from a re-analysis of the deposited data

How the results depend on the processing

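No member probe passed the adjusted threshold in limma under any of the 15 alternatives, with a lowest adjusted p of 0.222 (array weights). The 8 members at an unadjusted p under 0.05 were 4 without a filter on dim probes, 17 with array weights, 3 with the brightest probe per gene, and 0 to 8 with 1 array left out. Over all tested probes, 18 passed the adjusted threshold, against 30 with normexp, 35 with a trended and robust eBayes, 7 without a filter, 29 with array weights, and 4 to 26 with 1 array left out. The members' median difference of 0.041 was 0.072 with array weights and 0.026 to 0.072 with 1 array left out. Same-numbered arrays shared little of their deviations from the group means, with correlations of 0.058, -0.024 and -0.0027. With 3 arrays a group, such values cannot exclude that the samples were paired. With the replicate number as a block, 6 probes passed and 3 members had an unadjusted p under 0.05. Differences near 0 changed sign. Tekt1 probe A_55_P2111990 was 0.036 with quantile normalization, 0.018 with array weights, 0.040 without knockout replicate 3 and 0.017 without wild-type replicate 1. Tekt1 probe A_55_P2132024 was -0.0049 without knockout replicate 2 and -0.0020 without wild-type replicate 3. Without knockout replicate 3, Tekt5 was 0.0027 and Spag16 probe A_55_P2007530 was 0.0086. Without wild-type replicate 2, Spag16 probe A_55_P2098609 was 0.085 and Dnah6 probe A_55_P2030269 was -0.0048. Without wild-type replicate 3, Tekt3 was -0.0016. With 1 array left out, the widest values on the other side were -0.037 and 0.047 for these Tekt1 probes, -0.091 for Tekt5, 0.044 for Tekt3, -0.20 and -0.089 for Spag16 (A_55_P2098609 and A_55_P2007530) and 0.070 for Dnah6. The cause was not tested. The 4 widest errors are on dim probes, of Spag16, Spag17, Dnah11 and Dnah6.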
